A study of Brassica rapa subsp. rapa with 9 samples.

Results

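The results below concern 62 cDNA probes of a turnip array that carry the names of 3 Arabidopsis genes annotated as carboxylic ester hydrolases, AT3G14210, AT1G54020 and AT4G01130. The genes are 3 of 1023 Arabidopsis names on the array. Their probes were chosen by name, as all spotted clones of weight 1 whose deposited name ends in one of these symbols, and they make up 62 of 2507 tested probes. AT3G14210 had 28 probes on 62 spots and AT1G54020 had 33 probes on 66 spots, whereas AT4G01130 had 1 probe on 2 spots, so that many probes per name applied to the first and second gene only. A further 3 probes (2 of AT3G14210 and 1 of AT1G54020) were spotted but had weight 0 on every spot, with a median signal of 1.01 to 1.22 times background in each channel, and were not used. The genes were singled out with their ratios in the 3 lights in view. Their values against darkness and between lights are therefore given as a description, and counts of probes past a threshold stand beside the share of all probes on the array. A probe is said to pass, or to be called, at a limma adjusted p under 0.05 over all 2507 probes, and standard errors (SE) are those of this fit with 3 arrays per light.

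The tissue was the surface layer of swollen hypocotyls of the red turnip cultivar 'Tsuda' (Brassica rapa subsp. rapa), and the exposure lasted 24 hours in each light (blue, UV-A or UV-B), with hypocotyls kept in darkness as the control. Each of the 9 arrays carried polyA RNA of an exposed sample in Cy3 and of a dark sample in Cy5, with 3 biological replicates per light and no dye swap, and the series' design text states that each replicate came from over 5 plants. RNA of these plants was pooled, and no genotype other than 'Tsuda' was used. No dark array of its own enters the results, so a dye bias specific to a probe stays in every log2(light/dark). Where such a bias is the same on all arrays, it cancels in differences between lights. In a bulk sample, fewer cells of a type and less RNA per cell cannot be told apart.

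All 3 genes belong to the GDSL family of plant esterases and lipases, a group of enzymes named after a motif around their active serine. In Arabidopsis, AT3G14210 is known as EPITHIOSPECIFIER MODIFIER1 (ESM1), a protein that shifts the breakdown of glucosinolates, the mustard oil precursors of the cabbage family, away from nitriles and towards isothiocyanates. AT1G54020 encodes a related protein of the kind found together with myrosinase, the enzyme that starts this breakdown when tissue is damaged. AT4G01130 is a further GDSL esterase. The names are the best Arabidopsis matches in the deposited annotation. None of the 3 symbols matched an entry of the turnip RefSeq gene table, so neither coordinates nor clone sequences are shown, and the files do not say which clones stem from the same turnip gene copy.

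Signal differed between arrays. The median foreground of the light channel was 3.57 times background on UV-B replicate 1 and 65.8 times on UV-A replicate 2, the extremes of the 9 arrays, and 9.17 to 36.9 times in the dark channel. On the UV-B arrays the light channel was at 3.57, 4.35 and 16.5 times and the dark channel at 9.17, 9.69 and 27 times. On the blue arrays these were 17.1, 28.9 and 9.85, and 14.1, 28.7 and 10.3. On the UV-A arrays they were 8.82, 65.8 and 39.4, and 14.1, 33 and 36.9. The part of the dimmer light channel in the UV-B ratios was not tested. Across probes, which are not independent, the r between replicate arrays of a light was lowest in blue light (0.379 to 0.388), intermediate in UV-A (0.415 to 0.684) and highest in UV-B (0.573 to 0.772). Of the 135 spots without a clone, 3.7% to 8.15% exceeded background on the arrays of replicates 1 and 2, while at least 99.3% did so on the arrays of replicate 3. A channel above background on a replicate 3 array, as counted for probes below, therefore does not by itself show signal of the probe. LHCB2.1, the sole measured name on the list of green tissue markers, measured 1.24, 0.63 and 0.62 (log2(light/dark)) in blue light, UV-A and UV-B. Such ratios do not show which cells the tissue held. TGG1, the myrosinase that marks myrosin cells, measured 0.21, -0.36 and 0.8, and did not pass in any light. Its part in the values of the ester hydrolases was not tested. The brightest probes of the pigment enzymes CHS, F3H, DFR and LDOX had list medians of 0.36, 1.05 and 0.22. CHS and F3H passed upward in UV-A, beside 10 of all 1023 names. In UV-B F3H passed upward (0.96), beside 133 of all names, while LDOX measured -0.86 and did not pass. The water channels PIP1B and PIP3 and the peroxidase PRXR1, listed for root and storage organ, are not specific to such an organ. They had medians of 0.5, 0.84 and -2.09, and all 3 fell in UV-B, the light in which most AT3G14210 probes were low. Their part in those values was not tested.

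AT3G14210, the ESM1 match, had much less RNA in UV-B than in darkness on most of its probes, and ratios near or slightly above dark in the other lights. The median over its 28 probes was -2.01 (log2(light/dark)) in UV-B, that is 4.03-fold more in the dark sample. It was 0.12 in UV-A and 0.54 in blue light, where the light sample held 1.45-fold more. In UV-B, 25 of 28 probes had a mean below 0, and 23 were below 0 on all 3 replicate arrays, against 27.3% of all probes. A limma adjusted p under 0.05 was reached downward by 22 probes (78.6%), where the share of all probes was 13.9%, and upward by 1 probe (10.8% of all probes). Without UV-B replicate 3, 15 AT3G14210 probes passed.

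The 3 UV-B arrays gave nearly the same centre, with medians over the AT3G14210 probes of -2.1, -2.02 and -2.26 (SD 0.122, n = 3). In blue light the array medians were 0.41, -0.14 and 1.3 (SD 0.724), and in UV-A they were 0.24, -0.69 and 0.76 (SD 0.732). The replicates of these lights thus fell on both sides of 0, with replicate 3 highest and replicate 2 lowest in each. Without blue replicate 3 the blue median was 0.11, and without UV-A replicate 3 the UV-A median was -0.29. A single probe, 1649, passed upward in blue light (1.12% of all probes) and 1, probe 1405, downward (2.35%). With the replicate number as a block in the fit 3 passed upward and 1 downward, beside 168 and 236 of all 2507 probes. The upward call of 1649 was lost when any array except UV-B replicate 3 was left out, and that of 1405 was lost without blue replicate 3. In UV-A, 1 probe passed downward (2.07% of all probes) and 0 upward (1.12%), also with 0 upward at an unadjusted p under 0.05. This downward call, of probe 1405, was lost without UV-A replicate 2 or 3.

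**Figure D1:**
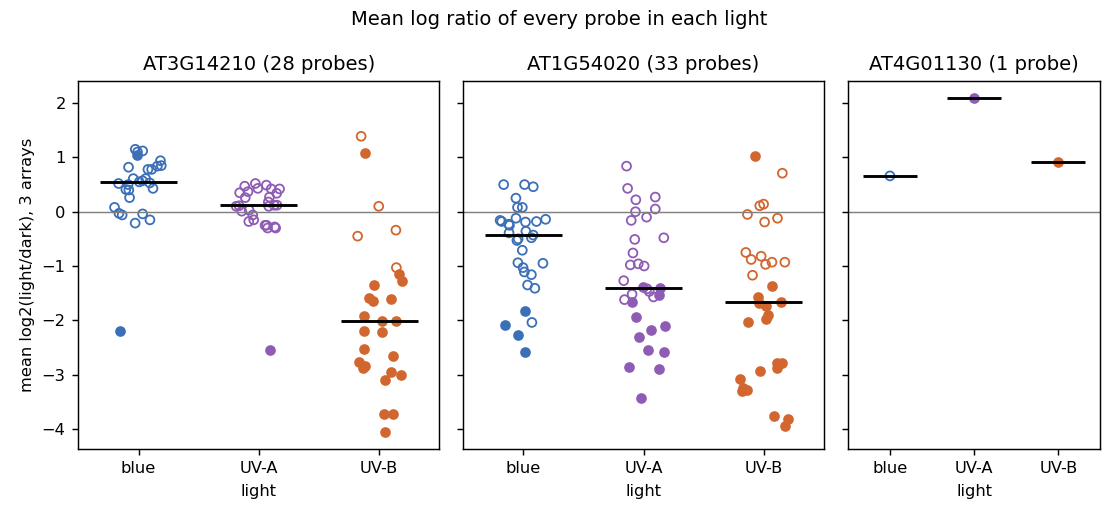
Mean log2(light/dark) over 3 arrays (vertical axis) of every probe of AT3G14210, AT1G54020 and AT4G01130 in each light, with filled points for a limma adjusted p under 0.05 and a black line at the median over probes. The AT3G14210 medians are 0.54, 0.12 and -2.01 in blue light, UV-A and UV-B, and those of AT1G54020 are -0.43, -1.4 and -1.66.

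The AT3G14210 probe with the highest signal, 1658, measured -0.11, 0.13 and 1.55 on the blue arrays, -0.24, -0.28 and 0.81 on the UV-A arrays and -2.36, -1.58 and -2.72 on the UV-B arrays (log2(light/dark), replicates 1 to 3). Its UV-B values lay below all 6 others. The means were 0.52, 0.1 and -2.22 with a standard error of 0.371 in each light, and 4.66-fold more RNA was measured in the dark sample than in the UV-B sample. A spot of this probe was saturated in the light channel on 3 arrays and in the dark channel on 3, so the size of its ratio is not exact there.

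The lowest UV-B mean belonged to probe 339, with -4.84, -2.13 and -5.21 on the UV-B arrays, 0.27, 0.08 and 0.95 on the blue arrays and 0.13, -0.86 and 0.56 on the UV-A arrays. Its UV-B mean of -4.06 ± 0.504 (SE) is 16.7-fold more RNA in the dark sample, although the 3 UV-B replicates differed among themselves by an SD of 1.68. A spot of it was saturated in the light channel on 1 array and in the dark channel on 3, so this size is not exact. The highest blue mean, 1.15, was that of probe 1826, whose blue values of 0.41, 0.19 and 2.86 were all above 0 and whose UV-B values of -2.25, -3.68 and -2.92 were all below. It had a saturated light spot on 2 arrays and a saturated dark spot on 1. Its blue mean rests largely on replicate 3, and it passed with the replicate block only. Probe 1999 had the highest UV-A mean, 0.52, from 0.53, -0.44 and 1.46, a set of values that includes both directions.

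A few AT3G14210 probes had another pattern. Probe 1405 was the lowest in blue light and in UV-A, with -1.67, -1.84 and -3.1, then -1.88, -2.83 and -2.91, and -3.03, -2.6 and -2.94 in UV-B. It was the sole probe of this name below 0 on all 9 arrays, which 4.63% of all probes were, and its means of -2.2, -2.54 and -2.85 (SE 0.328) gave differences between lights of -0.34, -0.65 and -0.31 (SE 0.464), none of which passed. A dark spot of it was saturated on 1 array. As probe 1405 was low in every light, a dye bias specific to it cannot be told apart from less RNA. Probe 2448 measured 0.92, 0.98 and 1.33 in UV-B, 0.31, 0.68 and 0.29 in UV-A and -0.08, 0.21 and 1.06 in blue light, so that UV-B overlapped blue light. It was the 1 probe that passed upward in UV-B, with a mean of 1.08 ± 0.276, and this call was lost without UV-B replicate 1 or 3 and with the first spot. Probe 1120 had the highest UV-B mean, 1.39, from 0.76, 0.7 and 2.7, and did not pass, though it did with the replicate block. The third probe with a UV-B mean above 0, 1649, measured 0.23, -0.38 and 0.44 there, and 0.83, 1.02 and 1.26 in blue light, where its call was also lost with plain subtraction, median centring, the authors' values, the median of spots and the first spot. Its light channel was above background on 1 of 3 UV-B arrays, and the strict filter left it out.

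**Figure D2:**
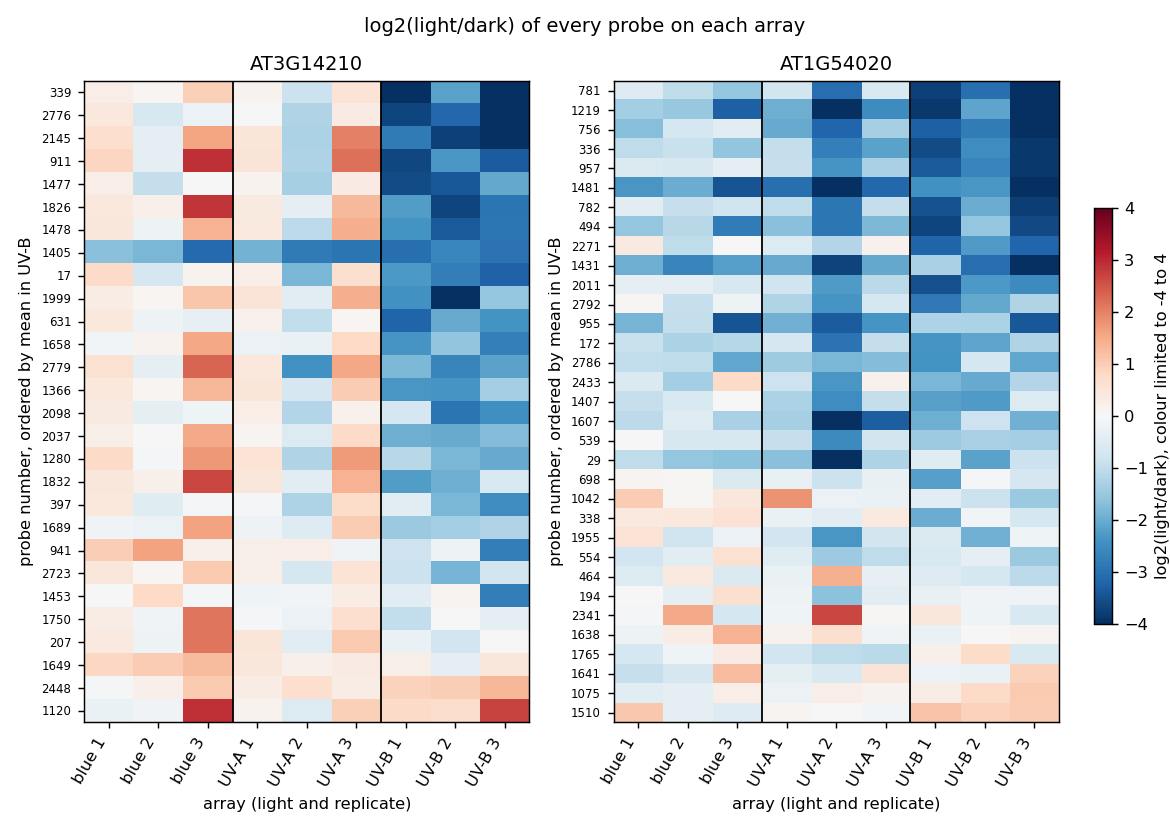
Colour map of log2(light/dark) for each probe (rows, ordered by mean in UV-B) of AT3G14210 and AT1G54020 on each of the 9 arrays (columns, 3 per light), blue for more RNA in the dark sample and red for more in the light sample. In AT3G14210 the low values are mostly in the UV-B columns, with probe 1405 low in all 9, while 16 AT1G54020 probes are below 0 in all 9.

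AT1G54020, the myrosinase-associated type, had ratios below dark in UV-A as well as in UV-B, and a smaller difference in the same direction in blue light. Any dye bias specific to a probe stays in these ratios. Its medians over 33 probes were -0.43 in blue light, -1.4 in UV-A and -1.66 in UV-B, or 1.35-, 2.65- and 3.17-fold more RNA in the dark sample. Means lay below 0 for 27 probes in blue light, 27 in UV-A and 29 in UV-B. On all 3 arrays of a light, 16 probes were below 0 in blue light (21.1% of all probes), 23 in UV-A (26%) and 27 in UV-B. Downward calls were made for 4 probes in blue light (12.1%), 13 in UV-A (39.4%) and 19 in UV-B (57.6%), beside 2.35%, 2.07% and 13.9% of all probes. With the replicate block, 9 probes passed downward in blue light, beside 236 of all 2507 probes.

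The array medians of AT1G54020 were -0.57, -0.66 and -0.57 in blue light (SD 0.0526), -0.8, -2.34 and -0.95 in UV-A (SD 0.85) and -1.95, -1.54 and -1.35 in UV-B (SD 0.304). All 9 were below 0. UV-A replicate 2 was the lowest of the 9, and without it the UV-A median was -0.83. The UV-A calls rested on every replicate of that light. In limma fits without UV-A replicates 1, 2 and 3 in turn, 4, 0 and 0 probes passed, while 18 and 23 had an unadjusted p under 0.05 in the fits without a call. Over all 2507 probes these fits called 23, 0 and 2. In blue light 0 probes of the name passed without blue replicate 1, 2 or 3, with 10, 8 and 5 at an unadjusted p under 0.05. The 4 blue calls became 1 when UV-A replicate 1 or 3 was left out and 2 when UV-A replicate 2 or UV-B replicate 1 was, and the 19 UV-B calls became 13 without UV-B replicate 1.

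Of the 33 AT1G54020 probes, 16 were below 0 on all 9 arrays (4.63% of all probes), and 4 passed downward in all 3 lights (0.558% of all probes). These 4 were 494, 955, 1431 and 1481. Without a dye swap, a dye bias specific to such probes cannot be told apart from less RNA in every light. Probe 1481 had the lowest means in blue light and in UV-A, from -2.32, -1.99 and -3.45 on the blue arrays, -3.02, -4.15 and -3.14 on the UV-A arrays and -2.42, -2.32 and -4.98 on the UV-B arrays. Its means of -2.59, -3.44 and -3.24 (SE 0.485) are 6-, 10.8- and 9.43-fold more RNA in the dark sample, and the values of the 3 lights overlap. Its light channel was above background on 2 of 3 UV-B arrays, so the UV-B size is not exact. For probe 1431 the light channel was not above background on any UV-B array. Its UV-B arrays measured -1.3, -3.04 and -4.04, and their mean is 6.94-fold more RNA in the dark sample. A bound on this mean, at least 6.93-fold, is nearly the same value and does not cover the spread between replicates. That bound sets the dark mean against, per array, the higher of the lowest signal above background and the probe's own signal.

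A total of 12 AT1G54020 probes passed downward in both UV-A and UV-B (1.2% of all probes), and 13 passed downward in no light (83.8% of all probes). The lowest UV-B mean was that of probe 781, from -3.72, -3.03 and -5.1, with -0.53, -1.03 and -1.54 in blue light and -0.75, -3.04 and -0.61 in UV-A. Its UV-B mean of -3.95 ± 0.485 is 15.5-fold more RNA in the dark sample, and its UV-B values overlap those of UV-A only through UV-A replicate 2. The light channel of probe 781 was above background on 2 of 3 UV-B arrays, so this size is not exact. The probe with the highest signal, 698, measured 0.1, 0.06 and -0.57 in blue light, -0.29, -0.85 and -0.31 in UV-A and -2.19, -0.05 and -0.68 in UV-B. Its means of -0.14, -0.48 and -0.97 (SE 0.365) passed in no light, and its values in the 3 lights overlap. A dark spot of this probe was saturated on 2 arrays, so the sizes of its ratios are not exact.

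At the other end of AT1G54020, probe 1510 measured 1.13, 0.92 and 1 in UV-B, a mean of 1.02 with an SD of 0.108, and was the 1 probe that passed upward in that light, or 1 of 2 with the replicate block. It did not pass without UV-A replicate 1 or any of the UV-B replicates, or with the first spot. Its values were 0.1, 0.02 and -0.11 in UV-A and 1.09, -0.35 and -0.51 in blue light, so that UV-B overlapped blue light. The highest blue mean, 0.5, was that of probe 1042, from 1.01, 0.05 and 0.45, and the same probe was below 0 on all UV-B arrays with -0.46, -0.85 and -1.47. The highest UV-A mean, 0.84, was that of probe 2341, from -0.17, 2.66 and 0.04, and was -0.07 without UV-A replicate 2.

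AT4G01130 had more RNA in UV-A and UV-B than in darkness, and its value in blue light did not pass. Its probe, 1171, measured 0.2, 0.77 and 1.02 in blue light, 2.19, 1.9 and 2.2 in UV-A and 1.34, 0.44 and 0.96 in UV-B, and was above 0 on all 9 arrays, as 3.67% of all probes were. The UV-A values lay above the other 6, and the blue and UV-B values overlapped. Its means were 0.66 in blue light (SD 0.417), 2.1 in UV-A (SD 0.169) and 0.91 in UV-B (SD 0.455), with a standard error of 0.272. The UV-A mean is 4.29-fold and the UV-B mean 1.88-fold more RNA in the light sample, and these passed upward, as did 1.12% and 10.8% of all probes. Its 2 spots differed by an SD of 0.0165 on blue replicate 1 and of 1.61 on UV-B replicate 3, so the value on the latter array is uncertain. The call in UV-A was lost without UV-A replicate 2 or 3, and the call in UV-B without UV-A replicate 1, UV-B replicate 1 or UV-B replicate 3. The differences of 1.44 from blue light to UV-A and of -1.19 from UV-A to UV-B (SE 0.385) did not pass. Without a dye swap, a dye bias specific to this probe cannot be told apart from more RNA in every light.

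**Figure D3:**
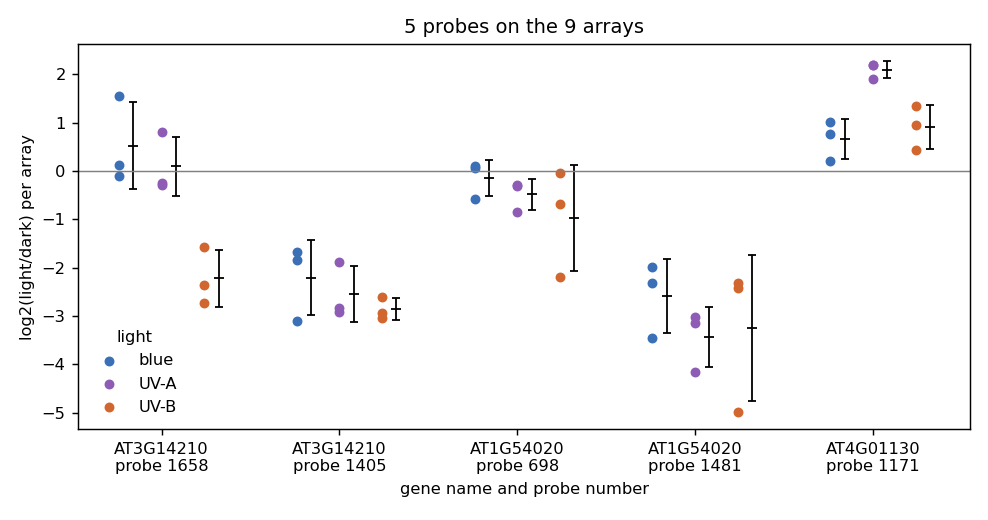
log2(light/dark) on each array (points, coloured by light) with the mean and SD over 3 arrays (black bars) for 5 probes, the brightest probe of each name and the lowest probes in blue light and UV-A of AT3G14210 (1405) and AT1G54020 (1481). Probe 1658 is low in UV-B alone, 1405 and 1481 are low in every light, 698 stays near 0 in blue light, and 1171 is above 0 on all 9 arrays.

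The spread among probes of a name was set against the error of a probe. In UV-B the means of the AT3G14210 probes ran from -4.06 to 1.39 with an SD over probes of 1.35, compared with a median standard error per probe of 0.422. In blue light and UV-A the SD over probes was 0.651 and 0.57, also above that standard error but by less. These SDs rest largely on probe 1405, at -2.2 and -2.54. The next lowest means were -0.21 in blue light and -0.3 in UV-A, and the quartiles were 0.22 and 0.82, and -0.16 and 0.36. A spread beyond the error among the other probes is thus not shown in these lights. For AT1G54020 the SD over probes was 0.818 in blue light, 1.07 in UV-A and 1.37 in UV-B, all above the median standard error of 0.395. The probes of a name share arrays and RNA, so none of these values measures the spread between plants. Duplicate spots of a probe differed by a median SD over arrays of 0.392 for AT3G14210 and 0.519 for AT1G54020, and by up to 1.08 and 1.07 on UV-B replicates 1 and 3.

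Among the 24 names with at least 10 probes, AT1G54020 had the largest SD over probes in UV-A and in UV-B and shared rank 2 in blue light, and AT3G14210 had the second largest in UV-B and ranked 10 and 11 in UV-A and blue light. Other names with a like number of probes were tighter in UV-B: 29 probes of the peroxidase PRXR1 had an SD of 1.19 around a median of -2.37, 31 probes of AT1G72290 an SD of 0.965, and 28 probes of the glycolytic enzyme GAPC an SD of 0.684 around 1.12. These ranks are a description without a test.

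The pattern of a probe over the 9 arrays was compared with the median of its own name and with that of the other name, a comparison chosen after the values were seen. AT3G14210 probes had a median Pearson r of 0.9015 with their own median, and 18 of 28 exceeded 0.8. AT1G54020 probes had a median r of 0.577, and 5 of 33 exceeded 0.8. A total of 4 AT3G14210 probes and 14 AT1G54020 probes had a higher r with the other name. In some the 2 values were close, as in AT1G54020 probe 2433 with 0.75 to its own name and 0.771 to the other. Probe 2271 of AT1G54020 had the highest r of its name with AT3G14210, 0.955, beside 0.6 to its own name. The values of 2271 were 0.37, -1.03 and -0.01 in blue light, -0.54, -1.16 and 0.16 in UV-A and -3.21, -2.26 and -3.17 in UV-B. Its UV-B values lay below the other 6. The points share arrays and the medians themselves correlated at 0.684. Each probe was left out of its own name's median when it was compared with that median.

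Ratios in UV-B were related to signal within each name. Over the 28 AT3G14210 probes, mean signal and UV-B ratio had r = -0.558, and the 14 brighter probes had a median of -2.37, all 14 with a downward call, against -1.43 and 8 calls in the 14 dimmer ones. In AT1G54020 r was -0.302, with medians of -2.03 in 17 brighter and -0.91 in 16 dimmer probes, and 13 and 6 downward calls. In blue light r was -0.133 and -0.185. At least 1 array held a saturated spot for 11 AT3G14210 and 5 AT1G54020 probes. Without these, the UV-B medians were -1.59 over 17 probes and -1.47 over 28 probes. The part that signal plays in the spread was not tested.

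In differences between lights, a dye bias that is constant for a probe cancels. A bias that varies between arrays or with signal does not, and neither do saturated spots or light channels near background. The median difference of UV-B from blue light was -2.49 (log2) over the AT3G14210 probes, with 20 of 28 downward calls (71.4%, beside 10.3% of all probes). Over the AT1G54020 probes it was -0.79, with 7 of 33 downward calls (21.2%). With the replicate block 12 AT1G54020 probes passed downward, beside 391 of all 2507 probes. Without UV-B replicate 3 the count for AT1G54020 was 4. The median difference of UV-B from UV-A was -2.03 over the AT3G14210 probes, with 13 downward calls (46.4%, beside 4.59% of all probes), or 20 with the replicate block. The block called 234 of all 2507 probes downward in this comparison. The 13 calls became 7 without UV-A replicate 1 or UV-B replicate 1 and 4 without UV-A replicate 3. For AT1G54020 this median difference was -0.37, with 2 downward calls (6.06%), or 4 with the block, and the 2 probes were 957 and 2271, named after their values were seen. Leaving out UV-A replicate 1 or 3, or UV-B replicate 1 or 3, gave 0 calls in limma, with 6, 8, 5 and 5 probes at an unadjusted p under 0.05. The count was 1 without blue replicate 1 or 2 and 5 without UV-A replicate 2.

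UV-A against blue light gave a median of -0.39 for AT3G14210 and of -0.61 for AT1G54020, with a median standard error of 0.597 and 0.558. No probe of the array passed in this comparison in limma (0% called, with 80 probes at an unadjusted p under 0.05), among them 0 AT3G14210 and 2 AT1G54020 probes at the unadjusted level. The mean in UV-A was below that in blue light in 26 of 28 AT3G14210 and 30 of 33 AT1G54020 probes, beside 51.5% of all probes. The order UV-B, UV-A, blue light from low to high held in 25 AT3G14210 and 19 AT1G54020 probes, beside 28.4% of all probes. All 3 comparisons share light samples and are not independent of each other, and whether the 2 names differ in them was not tested.

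**Figure D4:**
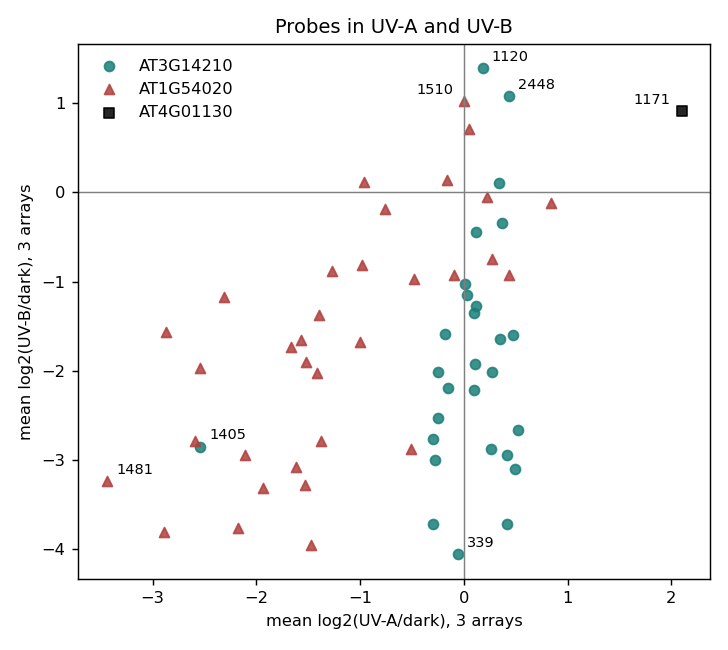
Mean log2(UV-A/dark) (horizontal axis) against mean log2(UV-B/dark) (vertical axis), 3 arrays each, for every probe of AT3G14210 (circles), AT1G54020 (triangles) and AT4G01130 (square), with 7 probes labelled by number. Circles form a column near 0 in UV-A with UV-B means down to -4.06, apart from 1405, while triangles extend to -3.44 in UV-A, and the square lies at 2.1 and 0.91.

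The genes whose brightest probe was most like that of a member over the 9 arrays were found among 1022 other Arabidopsis names. Each r given is thus picked as one of the highest of 1022, and whether the genes are regulated together was not tested. For AT3G14210 probe 1658 they were AT4G02230, a ribosome constituent (r = 0.984), AT2G41835, annotated for zinc ion binding (0.975), and MAM-L, annotated as methylthioalkylmalate synthase-like (0.972). The mean log2(light/dark) of MAM-L was 0, -0.16 and -1.7 in blue light, UV-A and UV-B. For AT1G54020 probe 698 the nearest were a phosphofructokinase, AT1G12000 (0.88), the phosphoglycerate kinase PGK (0.86) and AT2G38770 (0.828). For AT4G01130 the nearest was F3H, a flavonoid hydroxylase of the anthocyanin route (0.753), with means of 0.26, 1.69 and 0.96, followed by the inositol phosphate synthase AT2G22240 (0.704) and AT3G54260 (0.702).

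Other genes annotated as carboxylic ester hydrolases were represented by 6 names. Their brightest probes had medians of 0.32, 0.03 and -1.57 in blue light, UV-A and UV-B, where the medians of all 1023 names were 0.09, 0.06 and 0.13. In UV-B, 4 of the 6 fell and none rose, compared with 113 lower and 133 higher of 1023 names, and 0 passed in blue light or UV-A, with 0 also at an unadjusted limma p under 0.05. The 4 were AT4G19410 (-1.66 ± 0.38), AT5G45280 (-1.6 ± 0.316), AT1G73920 (-1.54 ± 0.321) and AT1G67830 (-1.82 ± 0.483). AT5G03610 measured 0 and AT4G22300 -0.16. Single probes limit this count, since 2 of the 8 probes of AT5G45280 passed downward and the median over its 8 probes was 0.19. For AT4G19410, 1 of 2 probes passed downward and their median was -0.52. AT1G67830 measured -2.11, 0.03 and -3.37 on the UV-B arrays. None of the 9 further GDSL and myrosinase-associated genes listed for comparison was among the names measured.

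Of the genes of glucosinolate breakdown, 6 were measured, with medians of 0.69, 0.12 and 0.39 in the 3 lights. The brightest probe of ESP, the epithiospecifier protein, which favours nitriles in Arabidopsis and is named after its values were seen, rose in blue light (1.38 ± 0.296) and in UV-B (1.27 ± 0.296). Of the 3 ESP probes, 1 passed upward in blue light and 2 in UV-B. In UV-B AT1G52000, a relative of the myrosinase-binding proteins, also rose (1 ± 0.274), and the myrosinase-binding protein MBP1 fell by 1.76 ± 0.494, with 5 of its 12 probes passing downward. The brightest probes of the myrosinase-binding protein MBP2, of its relative JR1 and of TGG1 did not pass in any light, while of all 7 JR1 probes 1 passed upward and 1 downward in UV-B. In UV-A the brightest probes of 0 of these 6 genes passed in limma, with 1 higher at an unadjusted p under 0.05. The brightest AT1G54020 probe, 698, did not pass there either, while 13 of the 33 probes of that name passed downward.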

How the data were processed

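Log ratios of light over dark were measured on 9 arrays, 3 per light, grouped by their titles, since the description field gives blue light for every sample. The deposited intensity values are foreground and background of each channel on a linear scale, per the file headers. Scanner and software were not given in the sources used here. The deposited weight, a score of 0 or 1 per spot that was the same in all 9 files, was read as the authors' mark for spots left out (972 of 6272). The authors' deposited log2 table runs as dark over light (r of -0.963 to -0.854 with log2(light/dark)), with column medians of -0.165 to 0.047 and an unstated normalization, so its sign was turned and it served as an alternative. The 3 split-control arrays of dark RNA are not analysed here.

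Background was corrected by normexp (offset 50), log ratios were normalized by loess (span 0.3) within each array, and spots of a probe were averaged, in R 4.3.3 with limma 3.58.1. Figures used Python 3.11.15 and matplotlib 3.10.9. A probe needed 1.5 times background in a channel on at least 3 arrays, a filter that all 62 probes passed and that shows no expression by itself, since nearly all empty spots exceeded background on the replicate 3 arrays. A single limma model over 9 arrays gave each light against 0 and each pair of lights, two-sided, with Benjamini-Hochberg adjustment over 2507 probes and a threshold of 0.05. The number of arrays limits the precision. The fit was tested on simulated data. Same-numbered arrays deviated together from their light's mean in all 9 pairs (r from 0.105 to 0.622), so the replicate number was used as a block in an alternative, and its value stands beside the counts it moved. Members and gene lists were chosen with earlier results of these data known. Named probes are the brightest of each name and the highest and lowest in each light, and lists are described by their brightest probes. Others are said to be chosen after their values were seen, or were needed to name counts of 5 or fewer. Alternatives were the background method, normalization, weights, filter, source of values, block, spot summary and leaving out each array.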

Additional observations from a re-analysis of the deposited data

Results flagged for a closer look

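AT3G14210 probe 1658, the brightest of its name, differed between lights in the limma fit, by -2.74 (log2, SE 0.524) from blue light to UV-B and by -2.32 (SE 0.524) from UV-A to UV-B, with every UV-B array below every array of the other lights. The second difference did not pass without UV-A replicate 3, UV-B replicate 1 or UV-B replicate 3, at -1.96, -2.25 and -2.07. The genes were chosen with these ratios in view, so the differences are a description.

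In 7 AT3G14210 probes (339, 941, 1366, 1826, 1832, 1999 and 2723) all blue arrays were above 0 and all UV-B arrays below. The same held for 2 AT1G54020 probes (338 and 1042). Over the array, 287 of 2507 probes (11.4%) had blue and UV-B arrays wholly on opposite sides of 0, and this difference was not tested.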

How the results depend on the processing

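In UV-B, the AT3G14210 median stayed below 0 under every alternative that was run, from -2.35 with plain background subtraction and -2.14 with the first spot to -1.7 with the authors' values (-1.7 also with the block) and -1.59 without probes that had a saturated spot, an alternative chosen after seeing the data. Leaving out an array gave -2.16 to -1.85 there, 0.11 to 0.74 in blue light and -0.29 to 0.41 in UV-A. The AT1G54020 median in blue light was -0.5 under the strict filter (both channels at 2 times background on 9 arrays), -0.53 with the authors' values with and without the block, and -0.37 with the first spot or without saturated probes, and its UV-B median was -1.3 with the authors' values with and without the block. Without an array it ran from -0.6 to -0.43 in blue light, from -1.64 to -0.83 in UV-A and from -1.66 to -1.39 in UV-B. The means of AT4G01130 ran from 0.49 to 0.89, 2.05 to 2.2 and 0.7 to 1.15, and its UV-B mean of 0.64 under median centring or 0.36 with the first spot did not pass.

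Counts moved more. AT3G14210 calls in blue light were 1 with subtraction, median centring, the strict filter, the authors' values or the median of spots, 0 with the first spot (2 at an unadjusted p under 0.05) and 4 with the replicate block. Under the strict filter, which keeps 14 AT3G14210 and 17 AT1G54020 probes, AT3G14210 had 14 calls in UV-B, 12 from blue light to UV-B and 7 from UV-A to UV-B, and AT1G54020 had 10, 3 and 1, counts over fewer probes. The replicate block gave 20 AT3G14210 calls from UV-A to UV-B, with the authors' values too. AT1G54020 calls in blue light were 2 with subtraction, print-tip loess, weight 0 spots kept or the median of spots, 0 with the authors' values or the first spot (9 and 12 unadjusted), 9 with the block and 8 with block and authors' values. In UV-A they were 20 with block and authors' values and 4 with the first spot. From blue light to UV-B they were 11 with the authors' values, 12 with the block and 13 with both, and from UV-A to UV-B 4 with subtraction, 4 with the block and 6 with block and authors' values. Leaving out an array gave 0 to 2, 0 to 1 and 15 to 24 AT3G14210 calls in blue light, UV-A and UV-B, 14 to 20 from blue light and 4 to 15 from UV-A to UV-B. For AT1G54020 these were 0 to 4, 0 to 14, 13 to 21, 4 to 10 and 0 to 5. The lowest UV-B counts came without UV-B replicate 3 and UV-B replicate 1. The cause was not tested.

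Over all probes, calls in blue light were 49 with subtraction, 18 with the authors' values, 0 with the first spot (408 unadjusted), 404 with the block and 284 with block and authors' values. UV-A gave 279 with the block, 423 with both and 31 with the first spot, and UV-B gave 1069 with both. UV-B against blue light gave 723 with the block, 937 with both and 284 with the first spot, and UV-B against UV-A gave 260 with the authors' values, 379 with the block and 623 with both. Without an array the ranges were 0 to 102, 0 to 133, 271 to 737, 218 to 460 and 75 to 278, and 0 to 0 for UV-A against blue light. The median of all probes in UV-B shifted to 0.12 under the strict filter and the authors' values.

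The block moved no other total of calls by over 1.5 times, though upward calls in UV-B became 2 for each of the names AT3G14210 and AT1G54020. Some values changed sign. Probe 698 in blue light became 0.03 with median centring, 0.17 with print-tip loess, 0.1 with the authors' values with and without the block, and 0.08 without blue replicate 3. Its difference of UV-B from UV-A ran from -0.95 to 0.12, the latter without UV-B replicate 1. Probe 1042 in blue light became -0.04 with the authors' values with and without the block. Without an array, probe 1658 ran from -0.26 (without UV-A replicate 3) to 0.29 in UV-A, and from -0.78 to 0.09 (without blue replicate 3) from blue light to UV-A. Probe 2341 in UV-A ran from -0.07 without UV-A replicate 2 to 1.35 without UV-A replicate 1, and probe 1171 had 0 between blue light and UV-B with median centring. Dim light channels on UV-B replicates 1 and 2 (medians of 3.57 and 4.35 times background) limit the size of the lowest ratios. Both channels were above background on all 9 arrays for 18 of 28 AT3G14210 and 22 of 33 AT1G54020 probes. The UV-B medians over these probes were -2.01 and -1.7.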
